A study of Homo sapiens with 4 samples.

Results

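Small nucleolar RNA (snoRNA) host genes annotated as noncoding were followed in WI-38, fibroblasts from human fetal lung. The set is GAS5, SNHG1, SNHG5, SNHG6, SNHG8, SNHG12, ZFAS1 and EPB41L4A-AS1, chosen by name, which is 8 of 45313 annotated genes other than small RNAs. The members were found as the Ensembl transcripts that GENCODE release 29 assigns to these symbols. That gave 95 transcripts, from 26 for GAS5 and 25 for SNHG1 to 4 for EPB41L4A-AS1. Values are per transcript and summed per gene, and the rows of the snoRNAs inside the genes were kept apart. GAS5 and SNHG12 lie on chromosome 1, SNHG8 on 4, EPB41L4A-AS1 on 5, SNHG5 on 6, SNHG6 on 8, SNHG1 on 11 and ZFAS1 on 20.

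The study sequenced 4 libraries, 1 per group: whole cells of young cultures at population doubling level 21, whole cells of senescent cultures at level 60, and mitoplasts of each. All 4 come from WI-38, without a transgene or drug in the labels. A mitoplast is a mitochondrion that has lost its outer membrane. Per the labels, nuclei were spun out, the crude mitochondria were swollen, and RNase A was applied to digest RNA outside them and stopped with proteinase K. With 1 library per group no difference below has a replicate check, library differences cannot be told apart from condition differences, and no p-value is given.

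Genes of this kind carry snoRNAs in their introns. Splicing frees the intron, the snoRNA is trimmed out of it, and the snoRNA then guides 2′-O-methylation (box C/D class) or pseudouridylation (box H/ACA class), mainly of ribosomal RNA. The spliced exons form a long noncoding RNA. Many hosts begin with a terminal oligopyrimidine tract, a C followed by pyrimidines as in ribosomal protein mRNAs, and their spliced RNAs are known substrates of nonsense-mediated decay, so that they accumulate when translation slows, as first described for GAS5 in growth arrest.

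The starts of 7 members are shown because the oligopyrimidine tract is the sequence feature these hosts are known for. They are from the RefSeq promoter table (build GRCh38.p14; the deposited files used hg19), 40 bases before the annotated start and 20 from it, 5′ to 3′ on the gene's strand. Capitals mark TATAA where it lies 40 to 20 bases before the start, and every C followed by 4 letters that are each C or T, within 10 bases of the start.
GAS5 (chr1:173869026-173869085, minus strand): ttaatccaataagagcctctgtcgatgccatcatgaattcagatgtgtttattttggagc
SNHG1 (chr11:62855866-62855925, minus strand): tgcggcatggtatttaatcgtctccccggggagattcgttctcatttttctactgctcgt
SNHG5 (chr6:85678714-85678773, minus strand): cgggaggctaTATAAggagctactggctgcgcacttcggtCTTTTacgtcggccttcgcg
SNHG8 (chr4:118278722-118278781, plus strand): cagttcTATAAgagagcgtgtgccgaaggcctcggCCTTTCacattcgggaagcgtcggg
SNHG12 (chr1:28581854-28581913, minus strand): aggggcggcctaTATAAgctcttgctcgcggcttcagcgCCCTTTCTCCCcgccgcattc
ZFAS1 (chr20:49278602-49278661, plus strand): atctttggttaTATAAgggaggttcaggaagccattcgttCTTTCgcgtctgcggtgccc
EPB41L4A-AS1 (chr5:112160486-112160545, plus strand): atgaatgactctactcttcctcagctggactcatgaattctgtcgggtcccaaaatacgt

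SNHG5, SNHG8, SNHG12 and ZFAS1 held both marks, and GAS5, SNHG1 and EPB41L4A-AS1 held neither. TATAA stood in that window of 3.77% of 35116 promoters in the table, and of 1.59% on the other strand, where ZFAS1 also matched. The pyrimidine run stood within 10 bases of the start in 28.2% of all promoters, and in 24.9% on the other strand, where no member matched. Among the more similar genes it stood there in 58.8% of 17 other noncoding hosts and 78.6% of 28 coding hosts, and TATAA in 11.8% and 14.3%. Exactly at the first base it stood in SNHG5, SNHG12 and ZFAS1, in 4.07% of all promoters, in 23.5% of the other noncoding hosts and in 57.1% of the coding hosts. The match depends on the annotated first base, and no match says only that these letters are not in the window. Each member was searched at a single annotated start, which was not checked against the starts of its transcripts above 0 here.

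Levels are given in FPKM, fragments scaled to transcript length and to the number of mapped fragments. All 8 members were above 0 in senescent whole cells, 7 in each young library and 4 in senescent mitoplasts. The 7 members above 0 in young whole cells were higher than 87.5% to 97.9% of all genes above 0 there. GAS5 and ZFAS1 led in both whole cell libraries, SNHG6 and GAS5 in young mitoplasts, and EPB41L4A-AS1 and ZFAS1 in senescent mitoplasts. Summed over all 8, whole cells held 694 FPKM when young and 351 when senescent, and mitoplasts 439 and 149.

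**Figure D1:**
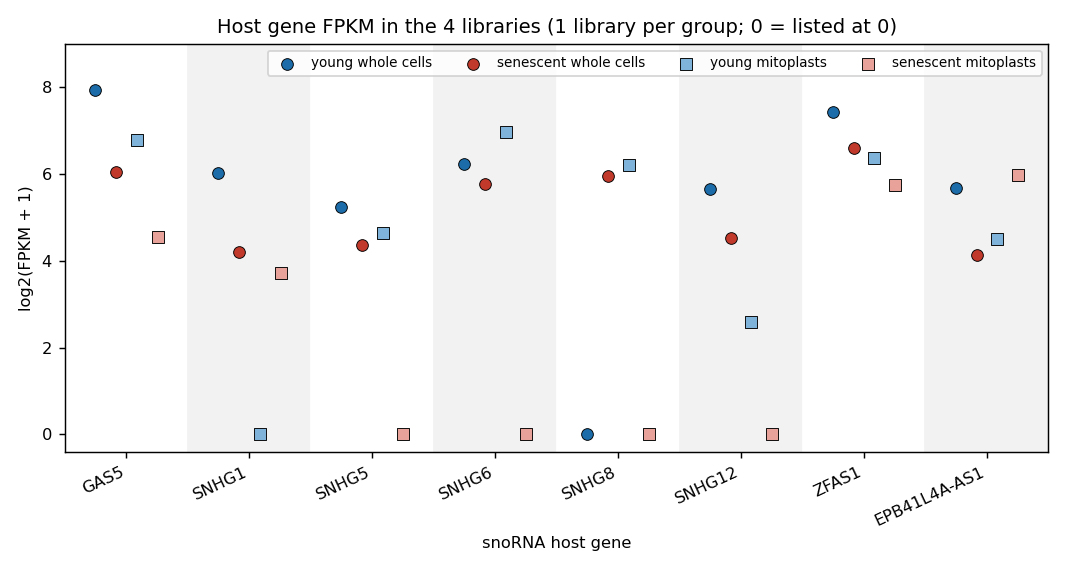
Level of each host gene, log2 of FPKM plus 1, in young (blue) and senescent (red) whole cells (circles) and mitoplasts (squares), with 1 library per group. GAS5, ZFAS1 and EPB41L4A-AS1 were above 0 in all 4 libraries, and 4 members sit at 0 in senescent mitoplasts.

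An exact 0 can be a failed estimate, so such values are called listed at 0 and no fold is given against them. Of 2970 genes whose highest level lay within the range of the members' highest levels, 36.7 to 246 FPKM, the share listed at 0 was 6.70% in young and 6.60% in senescent whole cells, and 10.3% in young and 20.3% in senescent mitoplasts. The members listed at 0 numbered 1 and 0 of 8 in whole cells, and 1 and 4 in mitoplasts, young before senescent. The depth of the libraries is unknown.

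The labelled cell type was checked against markers. All 10 fibroblast markers reached 1 FPKM in both whole cell libraries, with sums of 7078 and 3676 FPKM in young and senescent cells, and of 5430 and 925 in mitoplasts, where 9 and 8 of the 10 reached 1 FPKM. Of 5 blood and immune markers none reached 1 FPKM in whole cells; 1 did in young mitoplasts and 0 in senescent mitoplasts. Of 5 epithelial and 4 endothelial markers, 2 or 3 and 1 or 2 did in each library, and CDH5, which defines endothelium, was listed at 0 in all 4. The nuclear RNA MALAT1 had 1265 FPKM in young and 2305 in senescent whole cells, and at 89.0 and 507 in the mitoplast libraries; the part of nuclear RNA in the fraction differences below was not tested. Between 53.7% and 97.3% of the summed FPKM of a library lay in assembled transcripts without an Ensembl identifier. SNHG12, ZFAS1, GAS5, SNHG6 and EPB41L4A-AS1 overlap a gene on the other strand, and without a stated strand setting reads of the pair cannot be told apart.

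The first comparison asked what differs with replicative senescence in whole cells. Each of the 7 host genes above 0 in both libraries was lower in senescent cells, 4 of them by a log2 ratio of 1 or more: GAS5, SNHG1, SNHG12 and EPB41L4A-AS1. SNHG8 was listed at 0 in young cells and had 61.0 FPKM in senescent cells, so no direction is given for it. Ratios are log2 of FPKM plus 1, which understates the change of low genes. With the listed 0 of SNHG8 counted as a value, 4 members were lower and 1 higher, beside 22.9% of 8956 genes lower and 16.0% higher. A gene entered this background at 5 FPKM in either library. Among genes above 0 in both libraries, 20.3% were lower and 13.3% higher, with a median of −0.22 beside −1.12 for the 7 members. In bulk RNA, fewer cells of a type and less RNA per cell cannot be told apart.

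GAS5, which hosts 10 box C/D snoRNAs on the list used here and is named for its rise in growth arrest, had 246 FPKM in young and 65.1 in senescent whole cells. That was 3.79-fold lower, a log2 ratio of −1.90, the lowest of the 7. In senescent cells 57.1 FPKM lay in 2 assembled transcripts of the GAS5 locus, which had 0 in the 3 other libraries. With them the senescent value was 122 FPKM and the log2 ratio −1.01.

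SNHG1, host of the U22 snoRNA (SNORD22) and 7 others on the list, was at 63.8 and 17.3 FPKM, a log2 ratio of −1.82. A transcript of 240 nt, SNHG1-210, held 73.6% of the young value and was listed at 0 in senescent cells. SNHG1-208 of 347 nt was listed at 0 in young cells and had 10.9 FPKM in senescent cells. Without transcripts under 300 nt the ratio was 0.039, so the lower value depends on counting the short transcript. How reads were split between these transcripts was not tested. Another 12.7 FPKM in young and 2.64 in senescent cells lay in assembled transcripts of the locus. With those added to all annotated transcripts the ratio was −1.89.

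EPB41L4A-AS1, host of SNORA13 and also called TIGA1 for its induction in growth arrest, was at 50.5 and 16.7 FPKM, a log2 ratio of −1.54. Its shortest transcript, EPB41L4A-AS1-204 of 292 nt, held 97.0% of the young and 83.4% of the senescent value. Without it the ratio turned to 0.58.

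SNHG12, which hosts SNORA16A, SNORA44, SNORA61 and SNORD99, had 49.2 FPKM in young and 22.2 in senescent whole cells, all in SNHG12-207 of 524 nt. Its log2 ratio of −1.12 was −0.87 with median-of-ratios scaling, so it does not pass 1 on each scale. Of these 4 lower members, GAS5 alone stayed at −1 or below under all 7 alternatives that were run.

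The other 3 members differed by less. SNHG5, host of SNORD50A and SNORD50B, was at 36.7 and 19.7 FPKM (log2 ratio −0.86), and ZFAS1, host of the SNORD12 family, at 173 and 95.4 (−0.85). SNHG6, host of SNORD87, was at 74.7 and 53.9 FPKM (−0.46), which turned to 0.059 when each library was set to an equal sum over all genes. That rescaling also turned the background to 25.3% higher and 14.3% lower, while the members stood at 3 lower and 1 higher.

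SNHG8, host of SNORA24, had 3 transcripts above 0 in senescent whole cells. SNHG8-202 of 309 nt was at 29.4 FPKM, SNHG8-203 of 327 nt at 27.2 and SNHG8-205 of 470 nt at 4.42. None of its 5 transcripts was above 0 in young whole cells, and no assembled transcript lay in its locus there. Young mitoplasts held SNHG8-203 and SNHG8-205 at 66.5 and 6.59 FPKM, so the gene was not at 0 throughout the young samples.

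**Figure D2:**
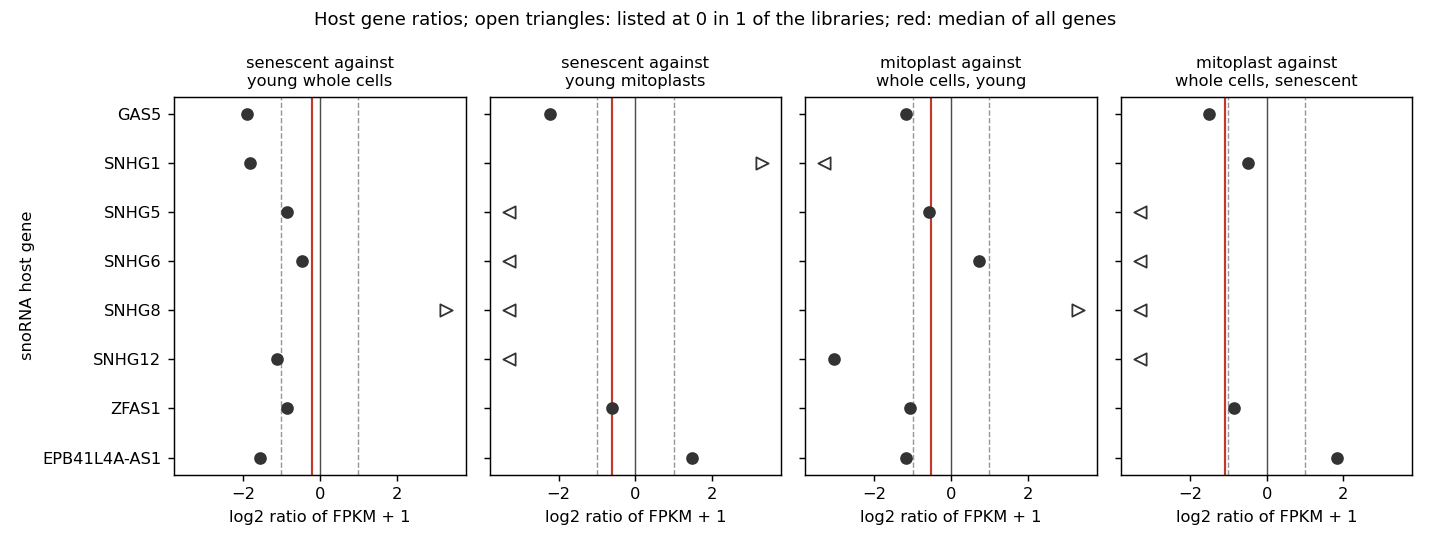
Log2 ratio of FPKM plus 1 for each host gene in the 4 comparisons, 1 library against 1. Filled points are members above 0 in both libraries, open triangles mark members listed at 0 in 1 of them (placed at the edge, with no size), dashed lines stand at −1 and 1, and the red line is the median of all genes above 0 in both. In whole cells 7 points lie left of 0, while the mitoplast panels hold several triangles.

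Mitoplasts were set against whole cells to ask which RNAs accompany the mitochondrial interior. The summed FPKM of 5 mitochondrial RNAs was 24893 in whole cells and 122237 in mitoplasts of young cultures, with all 5 above 0. In the senescent pair it was 14663 and 66211, but 4 of the 5, MT-RNR2 among them, were listed at 0 in whole cells and 3 in mitoplasts. In young cells most host RNAs with a value in both fractions were lower in mitoplasts. Of 6 members above 0 in both libraries, 4 were lower by 1 or more, GAS5, SNHG12, ZFAS1 and EPB41L4A-AS1, and 0 were higher, beside 38.6% and 14.4% of genes above 0 in both. The median was −1.12 for the 6 members and −0.51 for those genes. Over all 8, with SNHG1 listed at 0 in mitoplasts and SNHG8 in whole cells, 5 were lower and 1 higher, beside 42.3% and 18.7% of 9258 genes.

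SNHG12 was farthest down among members with values in both, from 49.2 FPKM in young whole cells to 5.07 in the mitoplasts (log2 ratio −3.05). GAS5 was at 246 and 109 FPKM (−1.17), ZFAS1 at 173 and 81.6 (−1.07) and EPB41L4A-AS1 at 50.5 and 21.7 (−1.18). These 3 stood close together, near −1 on this scale. With median-of-ratios scaling they were at −0.72, −0.62 and −0.73, and the members stood at 2 higher and 2 lower beside 25.4% of genes higher and 35.3% lower.

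SNHG6 was higher in young mitoplasts, at 124 FPKM against 74.7 (log2 ratio 0.72; 1.17 with median-of-ratios scaling). It was the highest member there, above 96.8% of genes above 0. Its transcripts did not all go this way. SNHG6-205 of 302 nt rose from 50.5 to 84.3 FPKM, and the retained-intron SNHG6-204, listed at 0 in whole cells, reached 32.1. SNHG6-203 of 638 nt fell from 24.2 to 7.70 FPKM. Leaving out transcripts under 300 nt keeps SNHG6-205, so the dependence on that short transcript was not tested. SNHG5 was at 36.7 and 24.2 FPKM (−0.58). SNHG1, with 63.8 FPKM in young whole cells, was listed at 0 in young mitoplasts, where 4.14 FPKM lay in assembled transcripts of its locus.

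In the senescent pair SNHG5, SNHG6, SNHG8 and SNHG12 were all listed at 0 in mitoplasts, against 19.7, 53.9, 61.0 and 22.2 FPKM in whole cells. That left 4 members with values in both. GAS5 was lower, at 65.1 and 22.4 FPKM (log2 ratio −1.49), ZFAS1 was at 95.4 and 53.0 (−0.84), and SNHG1 at 17.3 and 12.1 (−0.48). EPB41L4A-AS1 was higher, with 61.8 FPKM in mitoplasts against 16.7 (1.83).

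So 1 of these 4 was lower by 1 or more and 1 higher, beside 51.8% and 19.1% of genes above 0 in both, and 5 and 1 of all 8, beside 59.5% and 21.6% of 9221 genes. The median gene above 0 in both stood at −1.08 and the median nuclear coding gene at −1.63. The latter, unlike the former, includes genes listed at 0 in 1 of the libraries. Relative to it GAS5 turned to 0.13, SNHG1 to 1.14 and ZFAS1 to 0.79. On that scale the background, also with genes listed at 0, stood at 35.5% higher and 39.0% lower. GAS5 lay below the median of genes above 0 in both, and stayed lower with median-of-ratios scaling, at −0.50. With that scaling SNHG1 was at 0.49 and ZFAS1 at 0.18. So GAS5 changed sign only relative to the median coding gene.

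Senescent mitoplasts were last set against young mitoplasts. Of 3 members with values in both, GAS5 was lower, at 109 FPKM in young and 22.4 in senescent mitoplasts (log2 ratio −2.23). EPB41L4A-AS1 was higher, at 21.7 and 61.8 FPKM (1.46), and ZFAS1 was at 81.6 and 53.0 (−0.61). SNHG6, at 124 FPKM in young mitoplasts, SNHG8, at 73.1, SNHG5, at 24.2, and SNHG12, at 5.07, were listed at 0 in senescent mitoplasts, and SNHG1 the other way, at 12.1 FPKM in senescent mitoplasts alone.

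Over all 8 members that gives 5 lower and 2 higher, beside 51.4% and 26.9% of 8476 genes; among those above 0 in both, 1 of 3 was lower and 1 higher, beside 42.4% and 24.7%. The members' shares lie near the background. ZFAS1 turned positive under all 3 rescalings, from 0.19 with median-of-ratios scaling to 1.17 with equal sums. With equal sums GAS5 stood at −0.46, and the background turned to 44.4% higher and 33.3% lower. This comparison shares libraries with the others, so the values are not independent of those above.

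EPB41L4A-AS1 was the 1 member higher by 1 or more in senescent mitoplasts against both other libraries with a value. All 61.8 FPKM lay in the 292 nt transcript EPB41L4A-AS1-204, whose level was 49.0 and 13.9 FPKM in young and senescent whole cells and 19.1 in young mitoplasts. Its 3 longer transcripts were listed at 0 in senescent mitoplasts and reached at most 1.65 FPKM elsewhere. Without the short transcript the ratios of this gene turned to −1.88 between mitoplasts, −1.91 between senescent fractions and 0.55 between young fractions, with the gene listed at 0 in senescent mitoplasts.

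The transcripts behind each sum were few. Of 95 annotated transcripts, those above 0 numbered 15 in young and 19 in senescent whole cells, and 13 in young and 6 in senescent mitoplasts. The share above 0 among the transcripts of other genes is not given here, so these counts do not set the members apart. GAS5 was carried in young whole cells by GAS5-202 of 413 nt (94.3 FPKM), GAS5-223 of 483 nt (81.6), GAS5-219 of 542 nt (52.8) and GAS5-221 of 632 nt (17.6). In senescent whole cells GAS5-223 was at 29.1, GAS5-202 at 22.2 and GAS5-221 at 13.7 FPKM, and GAS5-219 was listed at 0. GAS5-202 was the transcript above 0 in all 4 libraries, at 53.7 FPKM in young and 12.6 in senescent mitoplasts. ZFAS1-201 of 504 nt held all of ZFAS1 in 3 libraries and 62.9% in senescent mitoplasts, where ZFAS1-203 of 860 nt held the rest.

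Of the 95 transcripts, 36 have a whole snoRNA inside an exon, which a spliced host RNA lacks. All 36 were listed at 0 in both whole cell libraries. Retained-intron transcripts of other genes are not set beside them here, so this cannot be read as particular to the hosts. In young mitoplasts 1 was above 0, the retained-intron transcript SNHG6-204 of 560 nt, which holds SNORD87, at 32.1 FPKM or 25.8% of SNHG6. In senescent mitoplasts 1 was above 0, the retained-intron transcript GAS5-214 of 822 nt, which holds SNORD79, at 9.81 FPKM or 43.7% of GAS5. Transcripts with a snoRNA thus held 0% of the summed host FPKM in whole cells, 7.31% in young and 6.57% in senescent mitoplasts, each from a single transcript.

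**Figure D3:**
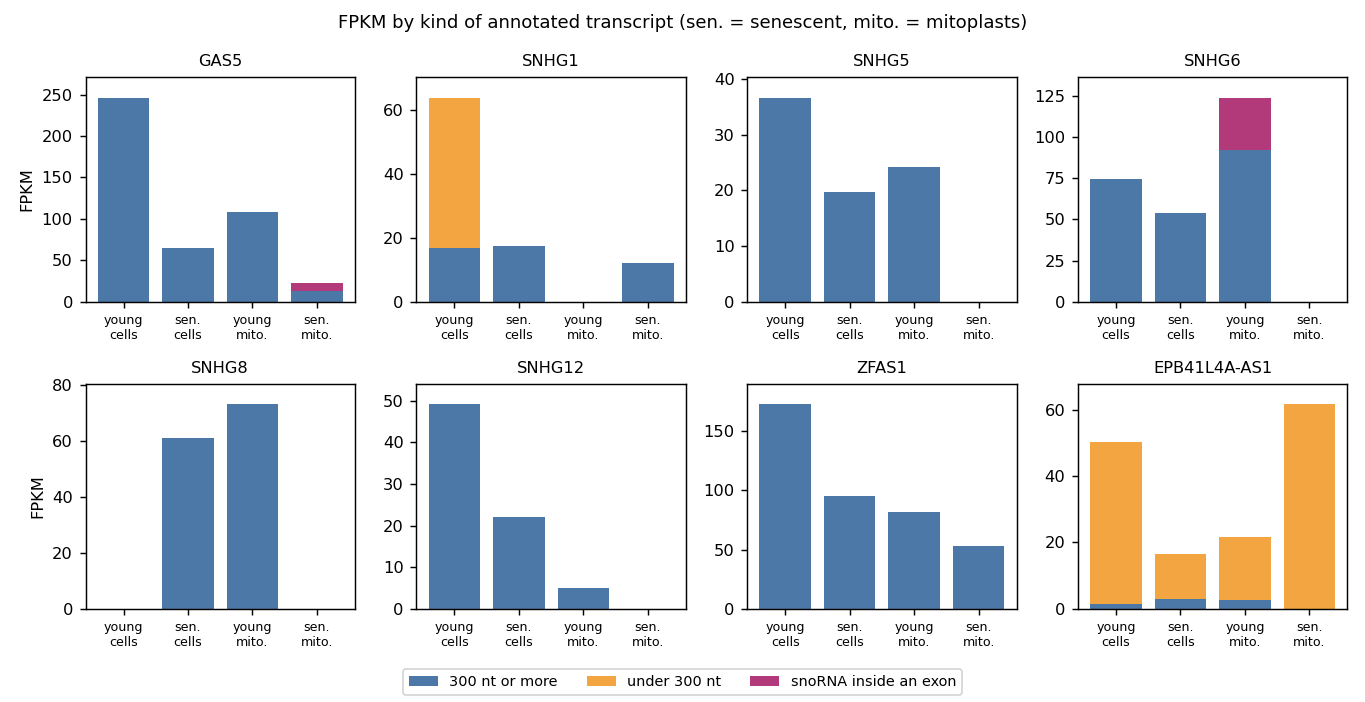
FPKM of each host gene in young and senescent (sen.) whole cells and mitoplasts (mito.), stacked by kind of annotated transcript; each panel has its own scale from 0. Transcripts under 300 nt make up most of SNHG1 in young whole cells and of EPB41L4A-AS1 in all 4 libraries, and transcripts with a snoRNA in an exon appear in 2 mitoplast bars.

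The snoRNAs inside the hosts have rows of their own. Of 30 on the list, 16 were matched to a row by name and place, and with RF00099 inside SNHG1 17 rows were examined; the 10 of GAS5, SNORD87, SNORD29, SNORD31 and SNORD50A are not analysed here. In the files 13 of the 17 rows were listed at 0 in all libraries and 4 were above 0, all in whole cells. The 4 are shown because they are the embedded snoRNAs with a value in these data. The sequences are from GENCODE release 29, in DNA letters; capitals mark TGATGA (box C) near the 5′ end and the last CTGA (box D) in the C/D class (in SNORD99 only CTGA was found), and ACA 3 bases before the end in the H/ACA class.
SNORD99 (C/D, in SNHG12, 74 nt): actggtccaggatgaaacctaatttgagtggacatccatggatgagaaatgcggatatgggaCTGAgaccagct
SNORD12 (C/D, in ZFAS1, 90 nt): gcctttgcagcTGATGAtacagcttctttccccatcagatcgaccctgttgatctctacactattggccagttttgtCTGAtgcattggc
SNORA61 (H/ACA, in SNHG12, 130 nt): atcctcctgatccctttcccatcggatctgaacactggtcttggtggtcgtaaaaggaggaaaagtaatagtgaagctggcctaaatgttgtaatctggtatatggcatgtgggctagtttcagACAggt
SNORA13 (H/ACA, in EPB41L4A-AS1, 133 nt): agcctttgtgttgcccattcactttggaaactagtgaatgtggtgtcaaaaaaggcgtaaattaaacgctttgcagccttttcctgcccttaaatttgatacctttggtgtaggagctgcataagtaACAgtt

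These rows are 74 to 133 nt long, and the sources used here do not say how the length of so short a transcript was corrected, so their FPKM cannot be compared in level with those of a host. SNORD99 had 171 FPKM in young and 1093 in senescent whole cells, 6.39-fold higher, while its host SNHG12 was lower. SNORA61, in the same host, was above 0 only in senescent whole cells, at 722 FPKM. SNORA13 was at 69.0 and 154 FPKM, 2.24-fold higher, while EPB41L4A-AS1 was lower. SNORD12, in ZFAS1, was likewise above 0 only there, at 56.4 FPKM. The 2 with values in both whole cell libraries, SNORD99 and SNORA13, were thus higher in senescent cells, as were 55.1% of 69 snoRNA rows above 0 in both and at 5 FPKM or more in either. Of those 69, 10.1% were lower and the median log2 ratio was 1.11. For SNORA61 and SNORD12 no direction is given, since the young value is a listed 0. In the mitoplast libraries all 4 were listed at 0, as were most snoRNAs: of 885 snoRNA rows 12.0% and 12.1% were above 0 in young and senescent whole cells, and 1.02% and 0.90% in young and senescent mitoplasts.

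**Figure D4:**
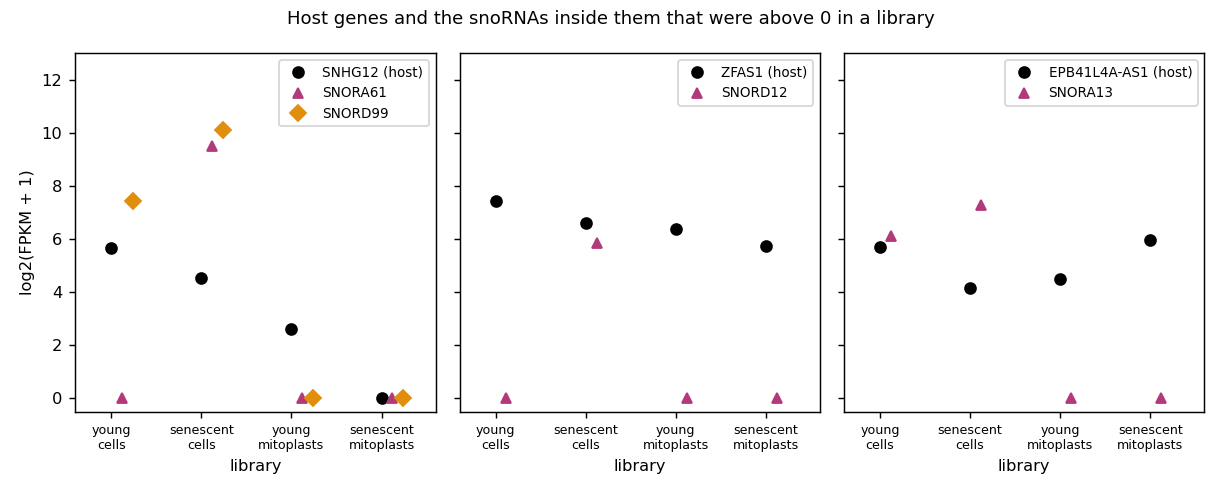
Log2 of FPKM plus 1 in the 4 libraries for 3 host genes (black circles) and the snoRNAs inside them with a value above 0 (coloured symbols). From young to senescent whole cells the 3 hosts go down while SNORD99 and SNORA13 go up; SNORA61 and SNORD12 are listed at 0 in young whole cells, and all 4 in mitoplasts.

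Other genes of the same biology were taken from lists chosen by function. Of 20 other noncoding snoRNA hosts, 15 reached 5 FPKM in a whole cell library. In senescent cells 2 of these were lower and 1 higher by 1 or more, beside 20.3% and 13.3% of genes above 0 in both. The other 12 lay between, and the median of the 15 was −0.16. SNHG18 had 2.27 FPKM when young and 17.4 when senescent (log2 ratio 2.49), SNHG19 at 36.6 and 14.1 (−1.32) and SNHG7 at 45.1 and 19.8 (−1.15). That median lies nearer to the −0.22 of all genes above 0 in both than to the −1.12 of the 7 members. For the mitoplast comparisons only hosts above 0 in both libraries are counted. Between young fractions 2 of 12 were lower in mitoplasts and 4 higher, with a median of −0.039, beside 38.6% and 14.4% of all such genes. Between senescent fractions 3 of 12 were lower and 2 higher, beside 51.8% and 19.1%. Between mitoplasts 3 of 12 were lower in senescent cells and 1 higher, beside 42.4% and 24.7%.

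Coding snoRNA hosts, most of them ribosomal protein and translation factor genes, lay nearer the members in whole cells. Of 34 at 5 FPKM or more in a whole cell library, 15 were lower, 0 higher and 19 between, with a median of −0.93. Among all genes above 0 in both libraries 20.3% were lower and 13.3% higher. RPL7A had 477 FPKM when young and 104 when senescent (−2.19), and RPL17 had 620 and 146 (−2.08). In young mitoplasts against whole cells these hosts had a median of 0.44 over 33 genes above 0 in both, where the 6 members had −1.12; RPS13 was at 218 and 548 FPKM (1.33). Among coding hosts above 0 in both mitoplast libraries, 31 of 34 were lower in senescent cells and 1 higher, beside 42.4% and 24.7% of all such genes. Between senescent fractions 11 of 34 were lower and 0 higher, beside 51.8% and 19.1%.

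Nonsense-mediated decay factors, which act on spliced host RNAs, had a median of −0.56 in whole cells, with 3 of 16 lower, 1 higher and 12 between. Among all genes above 0 in both libraries 20.3% were lower and 13.3% higher. The 1 higher factor, PNRC2, had 6.42 FPKM when young and 14.3 when senescent (1.05). The 3 lower ones had the largest ratios. UPF1, the central helicase of the pathway, had 29.9 FPKM when young and 5.71 when senescent (−2.20), CASC3, of the exon junction complex, at 92.7 and 23.2 (−1.95), and RBM8A, of the same complex, at 117 and 36.2 (−1.66). Proteins that build snoRNPs had a median of −0.46 over 11 above 0 in both libraries. Of these 4 were lower and 1 higher, beside 20.3% and 13.3% of all such genes. FBL, on the same list, had 44.2 FPKM when young and was listed at 0 when senescent, so it is not among the 11. NHP2, a core protein of H/ACA snoRNPs, was at 59.4 and 15.4 FPKM (−1.89) and GAR1, another, at 24.7 and 8.51 (−1.43), while ZNHIT6, a box C/D assembly factor, was at 5.72 and 21.6 (1.75).

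In the mitoplast comparisons only genes above 0 in both libraries are counted. Between young fractions 3 of 13 decay factors were lower in mitoplasts and 0 higher, and of 13 snoRNP proteins 0 were lower and 1 higher, beside 38.6% of all such genes lower and 14.4% higher. Between senescent fractions 4 of 12 decay factors were lower and 2 higher, and 2 of 9 snoRNP proteins lower and 2 higher, beside 51.8% and 19.1%. Between mitoplasts 5 of 10 decay factors and 5 of 11 snoRNP proteins were lower in senescent cells, with 2 and 1 higher, which lies near the 42.4% and 24.7% of all such genes.

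**Figure D5:**
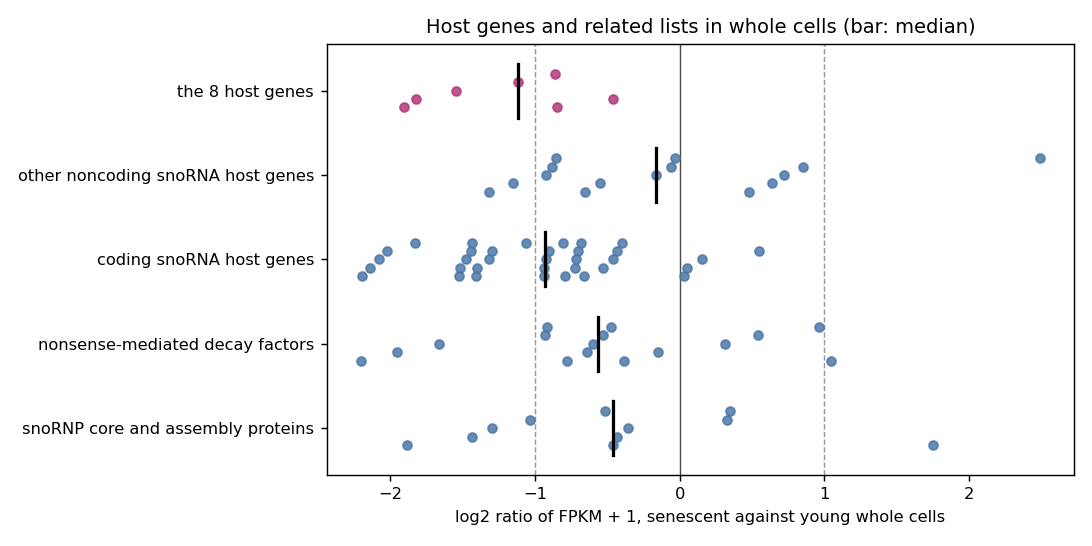
Log2 ratio of FPKM plus 1, senescent against young whole cells, for the 7 host genes above 0 in both libraries and for members of 4 related lists at 5 FPKM or more; each point is a gene, the bar is the list's median and dashed lines stand at −1 and 1. The 7 host genes have a median of −1.12, coding snoRNA hosts −0.93 and other noncoding hosts −0.16.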

How the data were processed

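The deposited values are FPKM per transcript, per the file headers, in 393483 rows for each of 4 libraries. Tools named in the submitters' processing notes are Cufflinks 2.2.1, Cuffdiff and TopHat2 2.0.14, with the build hg19. The sources used here do not give the annotation release, the strand setting or the normalization. A gene's value here is the sum of its Ensembl rows, matched to GENCODE release 29 (93.0% of 185591 rows matched); coordinates of that build served only for relations between features. Splitting FPKM among overlapping transcripts can move a value to another row or to 0. Ratios are log2((A + 1)/(B + 1)), called at 1 or more, over genes other than small RNAs at 5 FPKM or more in either library (Python 3.11.15, pandas 2.3.3). The functions were tested on simulated data. The named genes are all members, with up to 3 members of each list that have the largest ratio among those above 0 in both libraries, some of which are not printed. PNRC2 and FBL were added to these. The members and lists were chosen with earlier results of these data known. ZNHIT3 and PECAM1 are not analysed here. Alternatives were another pseudocount, assembled transcripts, short transcripts, 3 rescalings, members at 0 and the background filter.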

Additional observations from a re-analysis of the deposited data

Results flagged for a closer look

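EPB41L4A-AS1 went opposite ways in the fractions of young and senescent cells. Its log2 ratio of mitoplasts to whole cells was −1.18 in young and 1.83 in senescent cells, with 1 library in each group, and the difference was not tested. Both values rest on a transcript of 292 nt.

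Assembled transcripts of the GAS5 locus, outside the sums of annotated transcripts, held 57.1 FPKM in senescent whole cells and 0 in young whole cells.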

How the results depend on the processing

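A pseudocount of 0.1 FPKM and adding assembled transcripts changed no count of members past 1. Without transcripts under 300 nt, the members lower in senescent whole cells went from 4 to 2, those higher in senescent mitoplasts against young from 2 to 1, and those higher in mitoplasts between senescent fractions from 1 to 0; the log2 ratio of SNHG1 in whole cells turned to 0.039, and that of EPB41L4A-AS1 to 0.58 in whole cells, −1.88 between mitoplasts, 0.55 between young fractions and −1.91 between senescent fractions, where it is then listed at 0; fewer transcripts enter these sums. With members at 0 left out, the members higher in senescent whole cells numbered 0, those between mitoplasts 1 higher and 1 lower, those higher between young fractions 0 and those lower between senescent fractions 1. Between young fractions median-of-ratios scaling gave 2 higher and 2 lower, and scaling to the median nuclear coding gene also 2 and 2; the latter gave 2 higher between senescent fractions, and turned GAS5 there to 0.13; the cause was not tested. With equal sums over all genes each count stayed within 1.5 times its value. Without a filter on low values the share of all genes past 1 was 22.4% between whole cells and 40.1% between young fractions. No paired analysis was possible because each group holds 1 library. The depth of each library is unknown, so a value listed at 0 sets no limit.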

Other observations

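GAS5, SNHG1 and ZFAS1 each have a coding gene that starts within 1000 bp on the other strand in GENCODE release 29. SLC3A2, which encodes the heavy chain of a cell surface amino acid transporter and starts next to SNHG1, had 173 FPKM in young and 240 in senescent whole cells (log2 ratio 0.47), where SNHG1 was at −1.82. ZNFX1, next to ZFAS1, was at 9.81 and 14.3 FPKM (0.50), where ZFAS1 was at −0.85. Neither SLC3A2 nor ZNFX1 was lower in senescent whole cells on the deposited scale. In mitoplasts SLC3A2 had 8.34 FPKM when young and 65.3 when senescent, and ZNFX1 at 7.15 and 2.34. ZBTB37, the neighbour of GAS5, was listed at 0 in all 4 libraries, so it gives no comparison. These genes were looked up after the values of the hosts were known.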
